A study of Homo sapiens with 6 samples.

Results

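The caveolins, the cavins and the ATPase EHD2 were followed here in 786-O, a cell line from a human clear cell carcinoma of the kidney. The genes were CAV1, CAV2, CAVIN1, CAVIN3 and EHD2, and each symbol named 1 row of the 62703 in the deposited table, so that all 5 were found. The 6 libraries, made from total RNA with a TruSeq RNA kit, formed 2 groups of 3. The first were 786-O cells of the genotype labelled OGT overexpressed, OGT being the transferase that puts O-linked N-acetylglucosamine on proteins of nucleus and cytosol. The second were 786-O cells titled NC and labelled WT. Both were kept in RPMI-1640 with serum, and the labels give neither the vector, nor whether a group was 1 clone, nor whether replicates were separate cultures, so the p-values reflect only how these samples vary, which may be technical.

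Caveolae are small flask-shaped pits of the plasma membrane, rich in cholesterol, that buffer membrane tension and take part in endocytosis and signalling. Caveolins insert into the inner leaflet and oligomerise, cavins assemble around them as a peripheral coat, and EHD2 sits at the neck and restrains the pit at the surface. Caveolin-1 is required for caveolae outside muscle, and cavin-1 is required with it.

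Transcript levels were deposited as TPM, a per-length and per-library scale, and the libraries summed to 993935.5 to 996951.6 TPM. Because TPM does not record read totals, the depth is unknown and counting intervals cannot be given. Changes below are OGT minus NC on the log2(TPM + 1) scale, tested with limma over 12645 genes and called at a Benjamini-Hochberg adjusted p below 0.05. By this rule 39.1% of tested genes were called higher, 9.70% lower and 48.8% either way, around a median log2 change of 0.30, and the values of single genes are to be read against that background. The median became 0.02 after quantile normalization, -0.09 after the libraries were centred on their medians and 0.03 after a trend on GC content and transcript length was removed from each library. OGT itself lay between 270.87 and 352.92 TPM in OGT libraries and between 22.57 and 23.62 TPM in NC libraries. Of 10 kidney tubule and clear cell carcinoma markers, 6 reached 1 TPM in some library. PAX8 averaged 199 ± 13.4 TPM in OGT libraries and 136 ± 9.72 TPM in NC libraries (SD, n = 3 each, limma adjusted p = 0.00115). VIM averaged 2773 and 1872 TPM and CDH2 48.7 and 19.0 TPM in OGT and NC libraries (limma adjusted p = 1.46e-04 and 1.22e-04). PAX2 (10.0 and 9.27 TPM) and LHX1 (2.16 and 1.74 TPM) were not called. CA9 stayed at or below 0.85 TPM and the tubule cadherin gene CDH16 at or below 1.54 TPM in every library. EPCAM, CDH1 and NDUFA4L2 stayed at or below 0.7, 0.2 and 0.27 TPM.

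Of the 5 genes, 3 rose with OGT overexpression and 0 fell by limma, against 39.1% higher and 9.70% lower of all genes tested. CAV2 and CAVIN1 were not called. At an unadjusted limma p below 0.05 the count was 3 higher and 0 lower as well, against 44.1% higher and 11.6% lower over all genes tested. The median log2 change of the 5 genes was 0.26, against 0.30 for all genes tested. The change of CAV1 was the largest of the 5: 250 of the 12645 tested genes had a larger change, whereas the other 4 lay between the 31.9th and the 53.9th percentile.

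The promoters of CAV1 and CAV2 are shown because the genes are neighbours on chromosome 7 and CAV1 was called while CAV2 was not. CAV1 (ENSG00000105974) occupies 116524785 to 116561184 on the plus strand of chromosome 7, and CAV2 (ENSG00000105971) 116287380 to 116508541 on the same strand, 16244 bases apart, in GENCODE release 29 on GRCh38. RefSeq promoter windows of GRCh38.p14 were matched for CAV1, CAV2 and EHD2. Printed are the 250 bases before the first listed RefSeq start of each caveolin gene, both on the plus strand, with capitals marking ACGTG or GCGTG on either strand, the core of the hypoxia response element. The CAV1 window lies at chr7:116524759-116525008 and overlaps the GENCODE gene start. The CAV2 window lies at chr7:116499488-116499737, inside the longer GENCODE gene.
CAV1: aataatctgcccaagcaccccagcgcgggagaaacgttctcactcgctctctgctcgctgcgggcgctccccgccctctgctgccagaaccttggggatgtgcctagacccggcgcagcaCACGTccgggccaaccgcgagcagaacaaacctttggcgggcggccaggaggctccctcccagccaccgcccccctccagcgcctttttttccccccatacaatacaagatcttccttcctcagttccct
CAV2: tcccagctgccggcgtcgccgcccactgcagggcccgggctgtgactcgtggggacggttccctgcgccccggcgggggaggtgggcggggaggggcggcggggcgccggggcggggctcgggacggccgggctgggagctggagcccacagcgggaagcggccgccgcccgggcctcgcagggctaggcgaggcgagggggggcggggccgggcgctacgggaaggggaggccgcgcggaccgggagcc
The CAV1 window held 1 match to the core and the CAV2 window 0, while 43.2% of all 35116 windows of this length held at least 1. A later CAV1 start had 2 matches, and the other windows of CAV2 and EHD2 had 0. GC boxes, the letters GGGCGG on either strand, numbered 3 in the CAV1 window and 6 in the CAV2 window, and 42.6% of all windows held at least 1. The windows were 63.6% GC for CAV1 and 83.2% GC for CAV2, against a median of 58.0% over all windows. These are letter matches in the reference and not measured binding sites.

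CAV1 encodes caveolin-1, the main scaffold protein of caveolae outside muscle. It was at 114.31, 116.64 and 101.84 TPM in OGT replicates 1, 2 and 3, against 43.18, 37.73 and 38.21 TPM in NC replicates 1, 2 and 3. The groups did not overlap, and the lowest OGT library lay above each NC library. The same held for CAVIN3 and EHD2, which makes 3 of the 5 genes, all upward, whereas over all tested genes it held for 46.2% upward, 12.4% downward and 58.6% either way. CAV1 averaged 111 ± 7.96 TPM in OGT libraries and 39.7 ± 3.02 TPM in NC libraries (SD, n = 3 each), a 2.79-fold difference. The log2 change was 1.46 (SE 0.0807, 95% interval 1.27 to 1.65, limma adjusted p = 5.57e-05). It was 1.29 after quantile normalization, 1.07 after median centring and 0.93 after removal of the GC and length trend, and CAV1 was called each time (limma adjusted p = 1.05e-04, 8.23e-05 and 2.37e-04). CAV1 transcript, at 46.2% GC and 3201 bases in its reference transcript, is thus higher in OGT libraries under each of these 4 scalings, with a change that as deposited was 1.16 log2 units above the median of all genes.

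CAV2 encodes caveolin-2, which forms hetero-oligomers with caveolin-1 and depends on it to reach the plasma membrane. It was at 34.39, 31.71 and 36.72 TPM in OGT replicates 1, 2 and 3, against 29.63, 23.76 and 32.93 TPM in NC replicates 1, 2 and 3. The groups overlapped, since NC replicate 3 lay above OGT replicate 2. The log2 change was 0.25 (SE 0.127, 95% interval -0.05 to 0.55) and was not called (limma adjusted p = 0.14). Its sign depended on scaling: it was -0.03 after quantile normalization, -0.13 after median centring and -0.42 after the GC and length trend was removed, and CAV2 was called lower in the last of these (limma adjusted p = 0.0407). Its reference transcript is 40.7% GC, the lowest of the 5 genes. An unnamed antisense gene (ENSG00000237813) that overlaps part of CAV2 was listed at 0, 6 and 2.46 TPM in OGT libraries and 0, 0.11 and 0.83 TPM in NC libraries. Without a stated strand, reads from any sequence that it shares with CAV2 cannot be assigned to either gene. The antisense gene within CAV1 (ENSG00000235427) was listed at 0 in every library.

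**Figure D1:**
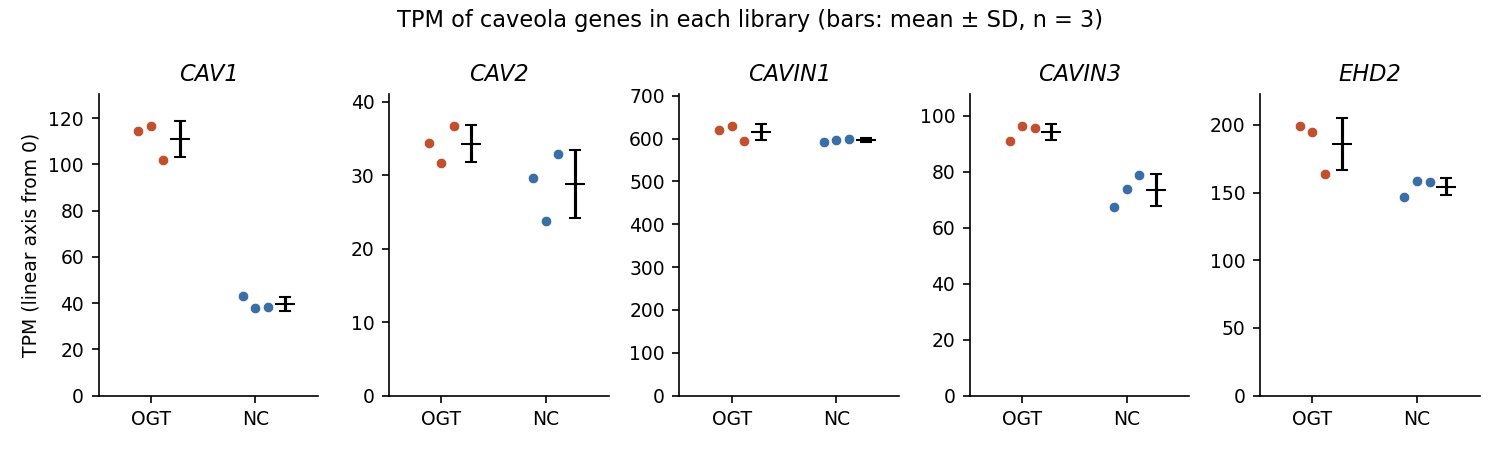
TPM of the 5 genes (vertical axes, linear from 0, a separate scale per gene) in the 3 OGT and 3 NC libraries; points are libraries and bars the mean ± SD. CAV1 lies between 101.84 and 116.64 TPM in OGT libraries and between 37.73 and 43.18 TPM in NC libraries, while the CAV2 and CAVIN1 libraries of the groups overlap.

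CAVIN1 (ENSG00000177469, chromosome 17, 42402452 to 42423517, minus strand) encodes cavin-1, the cavin without which caveolae do not form. It was the most abundant of the 5 transcripts, at the 98.1th percentile of tested genes in either group. It was at 621.13, 629.59 and 595.07 TPM in OGT replicates 1, 2 and 3, against 591.02, 596.72 and 599.58 TPM in NC replicates 1, 2 and 3. OGT replicate 3 lay within the NC range. The log2 change was 0.05 (SE 0.0349, 95% interval -0.04 to 0.13, limma adjusted p = 0.315), an interval that lies wholly below the median of all genes. Median centring gave -0.34 and removal of the GC and length trend -0.11, both called lower (limma adjusted p = 8.15e-04 and 0.023), and quantile normalization gave 0.0027 with no call (limma adjusted p = 0.963).

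CAVIN3 (ENSG00000170955, chromosome 11, 6318946 to 6320647, minus strand) encodes cavin-3, a coat protein that binds protein kinase C delta. It was at 90.98, 96.34 and 95.45 TPM in OGT replicates 1, 2 and 3, against 67.49, 73.7 and 78.89 TPM in NC replicates 1, 2 and 3. Each OGT library lay above each NC library. The log2 change was 0.36 (SE 0.069, 95% interval 0.20 to 0.52, limma adjusted p = 0.00513), close to the median of all genes. It was 0.60 after removal of the GC and length trend and 0.23 after quantile normalization, both called (limma adjusted p = 5.06e-04 and 0.0264), but -0.03 and not called after median centring (limma adjusted p = 0.79). Its reference transcript is the shortest and most GC-rich of the 5, at 1174 bases and 67.1% GC. A gene on the opposite strand (ENSG00000282556), which overlaps CAVIN3, was listed at 42.38 TPM in OGT replicate 1 and at or below 1.70 TPM in the other 5 libraries, and CAVIN3 remained called without OGT replicate 1 (log2 change 0.38).

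EHD2 (ENSG00000024422, chromosome 19, 47713343 to 47743134, plus strand) encodes the dynamin-like ATPase of the caveolar neck. It was at 199.34, 195.06 and 163.67 TPM in OGT replicates 1, 2 and 3, against 146.97, 158.32 and 158.05 TPM in NC replicates 1, 2 and 3. The groups did not overlap, but OGT replicate 3 lay nearer to the NC libraries than to the other OGT libraries. The log2 change was 0.26 (SE 0.0817, 95% interval 0.07 to 0.46, limma adjusted p = 0.0336). The call was lost without OGT replicate 1 or 2, or without NC replicate 1, 2 or 3 (limma adjusted p from 0.0606 to 0.106), and without OGT replicate 3 the change was 0.35 (adjusted p = 0.00391). It was also lost with a replicate block (adjusted p = 0.0576) and after quantile normalization or removal of the GC and length trend, and median centring gave -0.13 with no call.

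**Figure D2:**
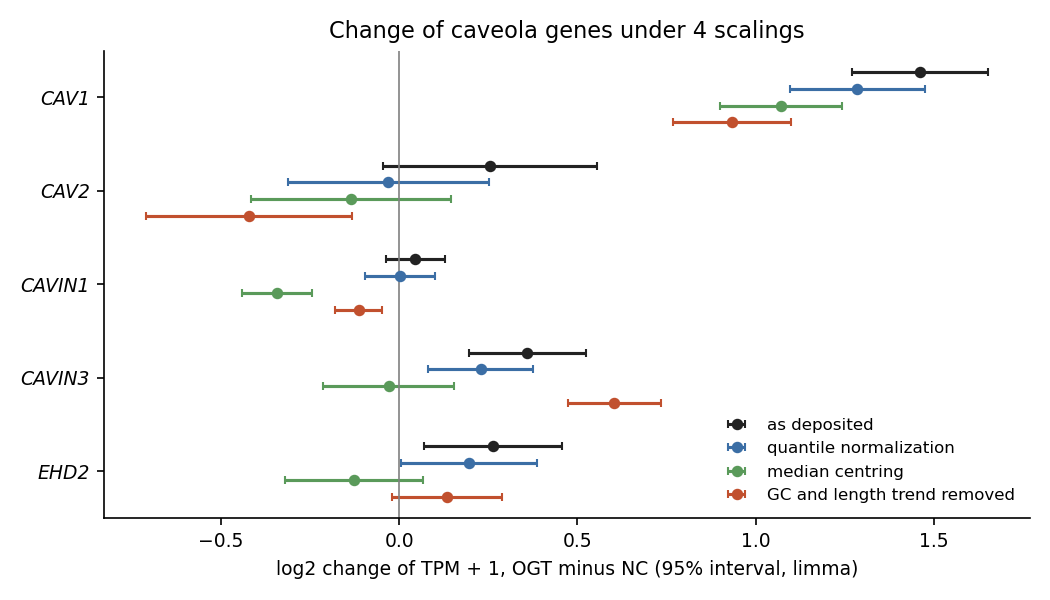
Log2 change of TPM + 1, OGT minus NC (horizontal axis), of the 5 genes as deposited and under 3 other scalings, with 95% limma intervals. CAV1 runs from 0.93 to 1.46 with no interval reaching 0, whereas each of the other 4 genes has at least 1 scaling with a value below 0.

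After removal of the GC and length trend 2 of the 5 genes were called higher (CAV1 and CAVIN3) and 2 lower (CAV2 and CAVIN1), against a background of 16.0% higher, 12.8% lower and 28.8% either way. After median centring CAV1 was called higher and CAVIN1 lower, against 15.3% higher, 24.2% lower and 39.6% either way. After quantile normalization CAV1 and CAVIN3 were called higher, against 20.2% higher, 17.8% lower and 38.0% either way.

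The composition of the caveola transcripts was compared within each library, since a ratio of 2 genes does not depend on the library total. CAV1 made up 76.3 ± 2.61% of the summed CAV1 and CAV2 TPM in OGT libraries and 58.1 ± 3.96% in NC libraries (SD, n = 3 each). The ratio of CAV1 to CAV2 was 3.32, 3.68 and 2.77 in OGT replicates 1, 2 and 3, against 1.46, 1.59 and 1.16 in NC replicates 1, 2 and 3. The groups did not overlap. The ratio of CAVIN1 to CAV1 was 5.43, 5.40 and 5.84 in OGT libraries, against 13.7, 15.8 and 15.7 in NC libraries. EHD2 exceeded CAV1 1.67 ± 0.0684-fold in OGT libraries and 3.91 ± 0.441-fold in NC libraries. Between the cavins the shift was smaller, with CAVIN1 at 6.53 ± 0.296 times CAVIN3 in OGT libraries and 8.15 ± 0.58 times in NC libraries. Summed, CAVIN1 and CAVIN3 were 710 ± 17.8 TPM in OGT libraries and 669 ± 10.0 TPM in NC libraries, and CAV1 and CAV2 were 145 ± 5.76 TPM in OGT libraries and 68.5 ± 6.11 TPM in NC libraries. The cavin to caveolin ratio was therefore 4.89 ± 0.0974 in OGT libraries and 9.83 ± 0.963 in NC libraries. On the log2(TPM + 1) scale the within-library differences moved by -1.21 for CAV2 to CAV1, -1.41 for CAVIN1 to CAV1, -1.20 for EHD2 to CAV1 and 0.31 for CAVIN3 to CAVIN1. Each of these 4 comparisons had a two-sided exact permutation p = 0.1, also after Benjamini-Hochberg adjustment, which is the smallest that 3 against 3 libraries allow. The 4 kept their signs after removal of the GC and length trend, at -1.35, -1.05, -0.80 and 0.72.

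**Figure D3:**
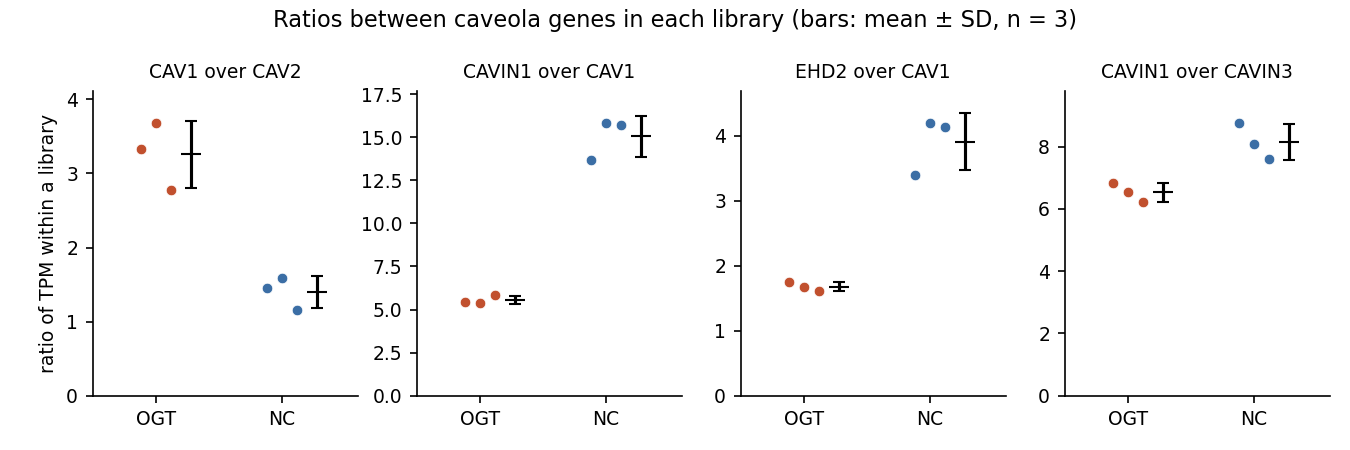
Ratios of TPM between caveola genes within each library (vertical axes, linear from 0, a separate scale per ratio), with points for the 3 OGT and 3 NC libraries and bars for the mean ± SD. CAVIN1 over CAV1 lies between 5.40 and 5.84 in OGT libraries and between 13.7 and 15.8 in NC libraries.

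TES and MET, which lie on either side of CAV2 and CAV1 on chromosome 7, both rose. TES, which encodes a LIM domain protein of focal adhesions and ends 28597 bases before CAV2, was at 38.4 ± 3.38 TPM in OGT libraries and 19.8 ± 2.93 TPM in NC libraries (log2 change 0.93, limma adjusted p = 0.0012). MET, the hepatocyte growth factor receptor gene, which starts 111206 bases after CAV1, was at 25.4 ± 2.69 TPM in OGT libraries and 7.48 ± 1.06 TPM in NC libraries (log2 change 1.64, limma adjusted p = 1.88e-04). After removal of the GC and length trend MET was still called, at 0.88, and TES was not (0.36, limma adjusted p = 0.0623). CAV2 was therefore the one of these 4 genes that was not called as deposited.

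The other genes of caveolae gave 3 called higher and 0 lower among 11 tested of 15 listed, against 39.1% and 9.70% of all genes tested. Their median log2 change was 0.11, against 0.30 for all genes tested. At an unadjusted limma p below 0.05 there were 5 higher and 0 lower, against 44.1% and 11.6% of all genes tested. The direction depended on scaling: quantile normalization gave 2 higher and 1 lower (median -0.01), against 20.2% and 17.8% of all genes. Removal of the GC and length trend gave 1 higher and 1 lower (median -0.10), against 16.0% and 12.8%. Median centring gave 5 calls, all lower (median -0.28), against 15.3% higher and 24.2% lower. The muscle caveolin gene CAV3 was listed at 0 in every library. The cavin-2 gene CAVIN2 reached 0.02 TPM, the muscle cavin gene CAVIN4 0.19 TPM and the neuronal gene PACSIN1 0.06 TPM at most, so that the caveolin and cavin transcripts of these cells were CAV1, CAV2, CAVIN1 and CAVIN3. PACSIN2, the membrane-bending partner at the caveolar neck, was at 72.9 ± 1.37 TPM in OGT libraries and 67.8 ± 4.16 TPM in NC libraries and was not called (log2 change 0.11, limma adjusted p = 0.197, but -0.28 and called lower after median centring). Its relative PACSIN3 was at 17.7 ± 0.653 TPM in OGT libraries and 20.15 ± 3.20 TPM in NC libraries. PACSIN3 was not called (log2 change -0.16, limma adjusted p = 0.303). DNM2, the scission GTPase gene, was at 202 ± 20.3 TPM in OGT libraries and 197 ± 7.34 TPM in NC libraries and was not called (log2 change 0.04, limma adjusted p = 0.71, but -0.35 and called lower after median centring). FLNA, which encodes the filamin that links caveolin-1 to actin, was at 3303 ± 170.1 TPM in OGT libraries and 3070 ± 88.4 TPM in NC libraries, with no call (log2 change 0.10, limma adjusted p = 0.0895). FLNA was called higher after quantile normalization (0.26, limma adjusted p = 0.00469) and without OGT replicate 3 (0.15, limma adjusted p = 0.0122), and lower after median centring (-0.28, limma adjusted p = 0.00225) and after removal of the trend (-0.10, limma adjusted p = 0.0196).

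The 3 that rose as deposited were SRC, FYN and EHD4. SRC and FYN encode kinases that phosphorylate caveolin-1 on tyrosine. SRC was at 47.08, 48.36 and 44.76 TPM in OGT libraries and 31.2, 35.28 and 30.86 TPM in NC libraries, without overlap (log2 change 0.51, limma adjusted p = 0.00186). It was still called after removal of the GC and length trend (0.31, limma adjusted p = 0.0204) but not after median centring (0.13, limma adjusted p = 0.29). FYN had a log2 change of 0.63 (limma adjusted p = 0.0306), which was no longer called after quantile normalization, median centring or removal of the trend, nor without OGT replicate 1, 2 or 3 or NC replicate 3. The call of FYN was also lost with no filter on low values, with a replicate block, and without the trend and robust options (limma adjusted p = 0.0761, 0.055 and 0.0503). EHD4, a relative of EHD2, had a log2 change of 0.25 (limma adjusted p = 0.0187) that turned negative, without a call, under quantile normalization, median centring and removal of the trend. Its call was also lost without OGT replicate 1 or 2 and with a replicate block (limma adjusted p = 0.0561 with the block).

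ROR1, a receptor pseudokinase gene whose product binds caveolin-1 and cavin-1, was at 2.72, 3.40 and 2.43 TPM in OGT replicates 1, 2 and 3, against 0.69, 21.78 and 1.29 TPM in NC replicates 1, 2 and 3, and was named after its values were seen. NC replicate 2 alone was high, and the gene was not called (log2 change -0.22, limma adjusted p = 0.867). Without NC replicate 2 it was called higher (0.96, limma adjusted p = 0.0253). In that library CAV1 stood at 37.73 TPM and CAVIN1 at 596.72 TPM.

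Among 5 flotillin and raft genes, 2 were called higher and 1 lower (median log2 change 0.24). Over all genes tested 39.1% were called higher and 9.70% lower, around a median of 0.30. Quantile normalization gave 1 higher and 1 lower (median -0.10), against 20.2% and 17.8% of all genes. Median centring gave 1 higher and 2 lower (median -0.15), against 15.3% and 24.2%. Removal of the trend gave 1 higher and 3 lower (median -0.33), against 16.0% and 12.8%. FLOT1, which encodes a scaffold protein of flotillin microdomains distinct from caveolae, was at 249.95, 256.38 and 264.46 TPM in OGT libraries and 327.86, 332.53 and 328.58 TPM in NC libraries. It fell by 0.36 on the log2 scale (limma adjusted p = 4.44e-04), and by 0.33 after removal of the trend. Its partner FLOT2 was not called (log2 change -0.08, limma adjusted p = 0.24), but was called lower after removal of the trend (-0.17, limma adjusted p = 0.035) and after median centring (-0.47, limma adjusted p = 9.54e-04). STOM, the stomatin gene, was at 8.67 ± 1.27 TPM in OGT libraries and 2.62 ± 0.0557 TPM in NC libraries (log2 change 1.41, limma adjusted p = 5.45e-04, 0.78 after removal of the trend). ERLIN1, an ER raft gene, had a log2 change of 0.24 (limma adjusted p = 0.0336) that became -0.42 with a call after removal of the trend. Its call as deposited was lost without OGT replicate 1 or 2 or NC replicate 2 or 3 (limma adjusted p from 0.0692 to 0.11) and with a replicate block (limma adjusted p = 0.0563). The call of ERLIN1 was also lost with no filter on low values and without the trend and robust options (limma adjusted p = 0.0713 and 0.063).

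The clathrin coat, the other main route of endocytosis, gave a higher median than the caveola genes. Of 14 tested members out of 15, 11 were called higher and 1 lower, with a median log2 change of 0.66. Over all genes tested 39.1% were called higher and 9.70% lower, around a median of 0.30. After removal of the trend 10 were called, all higher (median 0.43), against 16.0% higher and 12.8% lower of all genes. Quantile normalization gave 10 higher and 2 lower (median 0.41), against 20.2% and 17.8%. Median centring gave 6 higher and 3 lower (median 0.28), against 15.3% and 24.2%. FCHO2 was not tested and reached 1.84 TPM at most. CLTC, the clathrin heavy chain gene, was at 37.79, 41.82 and 38.59 TPM in OGT libraries and 10.98, 10.96 and 11.1 TPM in NC libraries (log2 change 1.75, limma adjusted p = 3.67e-05). The assembly protein gene PICALM had a log2 change of 1.69, the actin-linking adaptor gene HIP1 1.14 and the AP-2 subunit gene AP2B1 1.09, and these 3 with CLTC were called under each of the 14 alternatives. CLTB, the light chain B gene and the one called lower as deposited, was at 69.1 ± 1.64 TPM in OGT libraries and 86.1 ± 7.82 TPM in NC libraries (log2 change -0.31, limma adjusted p = 0.0136). It was not called after removal of the trend (-0.08, limma adjusted p = 0.515). The AP-2 subunit gene AP2S1 was also lower, without overlap of the groups, but was not called (log2 change -0.10, limma adjusted p = 0.0587). After removal of the trend AP2S1 was called higher (0.15, limma adjusted p = 0.0186). At an unadjusted limma p below 0.05 the list had 12 higher and 2 lower, against 44.1% and 11.6% of all genes tested. No test of the difference between the lists was made.

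**Figure D4:**
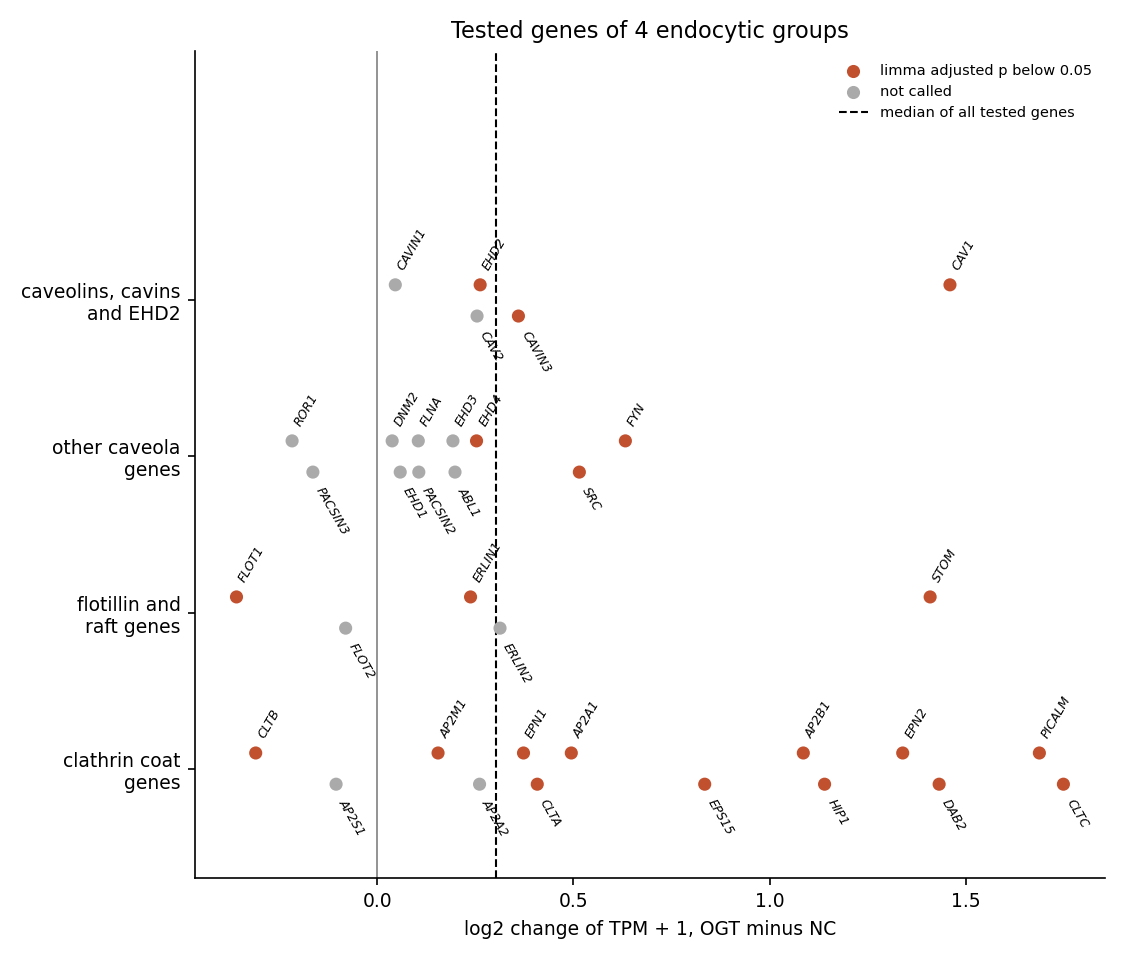
Log2 change of TPM + 1, OGT minus NC (horizontal axis), of each tested gene in 4 groups, coloured by its limma call, with the median of all tested genes (0.30) as a dashed line. CAV1 at 1.46 has the largest change of the caveola groups, where FYN at 0.63 is next. Among the clathrin coat genes CLTC (1.75) and PICALM (1.69) have larger changes than CAV1.

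The transcripts whose profiles over the 6 libraries were most like each gene were found by the root mean square difference of log2(TPM + 1) after each gene was centred on its own mean, over 8132 genes averaging 5 TPM or more. For CAV1 these were the RNA helicase gene DDX3X (29.3 TPM in OGT libraries and 9.89 TPM in NC libraries on average) and the arginyl-tRNA synthetase gene RARS1, at 0.049 and 0.0491 log2 units. The nearest of the other 4 caveola genes to CAV1 was CAVIN3, at 0.567 log2 units and rank 3251. For CAV2 they were ENSG00000286905 and HOXC10 (0.0508 and 0.0568), and for CAVIN1 SLC37A2 and ANAPC5 (0.0113 and 0.0121). For CAVIN3 they were FAM234A and STBD1 (0.0303 and 0.0304). The smallest difference within the 5 genes was that of CAVIN3 and EHD2, at 0.12 log2 units. EHD2 had rank 994 for CAVIN3, and CAVIN3 had rank 950 for EHD2. The best rank of any pair was 579, for CAVIN3 as seen from CAV2 (0.159 log2 units).

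Markers of caveola-rich cell types and of leukocytes were mostly low, the highest being PTPRC and ACTA2. Of 4 endothelial markers CDH5 was listed at 0 in every library, and their summed level was 0.25 to 2.77 TPM in OGT libraries and 0.85 to 8.68 TPM in NC libraries. The 3 adipocyte markers summed to at most 0.4 TPM in OGT libraries and 0.15 TPM in NC libraries, and the 5 fibroblast and pericyte markers to 0.83 to 3.04 TPM in OGT libraries and 0.14 to 2.48 TPM in NC libraries. Of 3 smooth muscle markers ACTA2 lay between 6.79 and 9.22 TPM and the others at or below 1.44 TPM, and their sum was 7.37 to 8.98 TPM in OGT libraries and 8.54 to 10.66 TPM in NC libraries. The 3 leukocyte markers summed to 0.24 to 0.39 TPM in OGT libraries and 0.22 to 12.65 TPM in NC libraries, the highest value being PTPRC at 12.23 TPM in NC replicate 1, where CD3E was at 0. NC replicate 1 also held the endothelial maximum, with PECAM1 at 4.22 TPM and KDR at 3.91 TPM, against 0.78 TPM and 0.18 TPM at most in NC replicates 2 and 3. The part of these transcripts in the results was not tested. Without NC replicate 1 the log2 change of CAV1 was 1.52. In bulk RNA, fewer cells of a type and less RNA per cell cannot be told apart.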

How the data were processed

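The authors deposited TPM per gene, 1 column per sample, for human Ensembl identifiers. GRCm38 and mm10, which are mouse builds, appear in the submitters' processing notes despite the human identifiers. No aligner, counter or annotation was given in the sources used here. Groups and replicate numbers came from the sample titles. Genes reaching 1 TPM in 3 or more libraries entered the test, run with limma 3.58.1 (R 4.3.3) on log2(TPM + 1) values (eBayes with trend and robust, two-sided, Benjamini-Hochberg). The GC and length trend was removed per library with natural splines of 4 degrees of freedom on GC content and log2 length of a reference transcript. This was the gene's longest protein-coding transcript in GENCODE release 29, or its longest transcript where none was protein-coding. Of tested genes 97.7% had a reference transcript. The fit was run on simulated data with independent noise and no shift of the median. That run speaks to the code and not to the calls made here. The members and lists were chosen with earlier results of these data known. Named were all 5 genes, up to 4 called members per list by adjusted p, members against their list's majority or near 0, chromosome 7 neighbours and the 2 most similar profiles, those of EHD2 not being reported here. PACSIN2, PACSIN3, DNM2, FLNA, FLOT2, AP2S1 and ROR1 were named after their values were seen. Replicates that share a number were not paired.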

Additional observations from a re-analysis of the deposited data

How the results depend on the processing

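CAV1 kept its direction and its call under all 14 alternatives, and its log2 change ran from 1.42 to 1.52 when each library was left out. CAVIN3 (0.30 to 0.41) kept its call and CAV2 (0.13 to 0.35) and CAVIN1 (0.03 to 0.07) stayed without one when each library was left out. EHD2 ran from 0.21 to 0.35 and kept its call in 1 of those 6 fits. Among the genes named with their changes, values turned negative under median centring for CAV2 (-0.13), CAVIN1 (-0.34), CAVIN3 (-0.029), EHD2 (-0.13), EHD4 (-0.14), ERLIN1 (-0.15), PACSIN2 (-0.28), DNM2 (-0.35) and FLNA (-0.28), under quantile normalization for CAV2 (-0.031), EHD4 (-0.043), ERLIN1 (-0.0057) and PACSIN2 (-0.050), and after removal of the GC and length trend for CAV2 (-0.42), CAVIN1 (-0.11), EHD4 (-0.15), ERLIN1 (-0.42), PACSIN2 (-0.14), DNM2 (-0.090) and FLNA (-0.096). When each library was left out DNM2 ran from -0.023 to 0.12 and ROR1 from -0.92 to 0.96, and ROR1 was 0.019 with a pseudocount of 0.1. EHD2 lost its call after quantile normalization (0.20), after removal of the trend (0.14), and at an unchanged 0.26 with no filter on low values, with a replicate block, and without the trend and robust options. The cause was not tested. Of all genes 3556 were called after removal of the trend against 6168 as deposited. Of the other caveola genes 5 were called after median centring, all lower, where 24.2% of all genes were called lower. The same list gave 1 call with a replicate block, against 3 as deposited, and 1 to 4 when each library was left out. With 1 library left out, the calls numbered 4888 to 5718 over all genes, 2 to 3 of the 5 caveolin, cavin and EHD2 genes, 2 to 3 raft genes and 11 to 13 clathrin coat genes. The 4 within-library differences kept their sign in each setting run: CAV2 to CAV1 ran from -1.31 to -1.08, CAVIN1 to CAV1 from -1.48 to -1.38, EHD2 to CAV1 from -1.29 to -1.14 and CAVIN3 to CAVIN1 from 0.26 to 0.36 when each library was left out. Deviations of same-numbered libraries correlated at -0.0194, 0.00264 and 0.0166, and 1 of 6 libraries correlated best with its own number, so the block pairs libraries by number only; it called 5473 genes. TPM without read totals sets no counting limit.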
